A study of Capra hircus with 3 samples.

Results

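miR-103 and miR-107 are 2 microRNAs (miRNAs) of nearly the same sequence, and many short reads from skin cannot be told apart between them. Their reads were examined in small RNA libraries of Shanbei White cashmere goat skin at anagen (hair growth), catagen (regression) and telogen (rest). Each stage was a single library from the mixed skin RNA of 10 adult goats with no treatment named, so there were no replicates, and a difference between stages cannot be told apart from a difference between pools. In whole skin, fewer cells of a type and less RNA per cell cannot be told apart either. Members were all tags (distinct read sequences) whose first 18 nt equal those of a tag that the authors annotated to a miR-103 or miR-107 precursor. The 8 listed tags gave 4 such starts. They collected 406 of the 4043974 distinct tags and 288970 of the 61125752 clean reads. Of these reads 288835 (380 tags) came from the 3p arm and 135 (26 tags) from the 5p arms.

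A miRNA is cut from a hairpin precursor, which yields a 5p and a 3p strand, and the retained strand guides the silencing complex to mRNAs mainly through its seed, bases 2 to 8. miR-103 and miR-107 lie in introns of pantothenate kinase genes, the enzymes that start coenzyme A synthesis, and are known to repress Dicer, the enzyme that matures miRNAs, and caveolin-1. In the goat gene table of assembly ARS1.2, MIR103 lies inside PANK2 and MIR107 inside PANK1. The authors annotated tags against cattle precursors and named mir-103-1, mir-103-2 and mir-107. The gene table holds only 1 gene named MIR103, so it does not place both mir-103 precursors under that name.

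The most read tag of each class is shown here, since the whole comparison turns on where it ends. Capitals mark the seed and base 22.

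miR-103 only: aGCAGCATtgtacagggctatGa

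miR-107 only: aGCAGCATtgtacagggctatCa

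fits both: aGCAGCATtgtacagggctat

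The longest listed 3p tags show where the sequences part, with capitals at the bases that differ.

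miR-103, listed: agcagcattgtacagggctatGaaGgc

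miR-107, listed: agcagcattgtacagggctatCaaA

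The seed was the same in every 3p member, since members share their first 18 nt. Counted from the 5′ end, the listed tag of miR-107 differs from that of miR-103 at base 22 (G22C) and base 25 (G25A). A tag of 21 nt or less therefore fits both. A longer tag was given to miR-103 when base 22 was G and to miR-107 when it was C, provided that the bases before it matched. Tags with another base at 22, or a mismatch at bases 19 to 21, fit neither. By this split, miR-103 alone held 144 tags and 153621 reads, and miR-107 alone 39 tags and 29927 reads. The 4 tags that fit both held 80262 reads, and 193 tags that fit neither held 25025.

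The libraries differed in depth and in short reads. The anagen library held 15997828 clean reads, the catagen library 18111912 and the telogen library 27016012. Levels are given as TPM, the reads of a member divided by the clean reads of its library and multiplied by 1000000, and a count of 0 allows up to 0.188, 0.166 and 0.111 TPM in these libraries (3 reads). The authors had removed 3.38%, 2.66% and 0.566% of the high-quality reads as under 18 nt. Markers of other cells also moved. The summed starts of the 4 skeletal muscle markers (miR-1, both miR-133 forms and miR-206) were at 4117 TPM in anagen against 78789 in catagen, with 21405 in telogen. The 3 red blood cell miRNAs summed to 1312, 2137 and 878 TPM. Of them, miR-451 and miR-486 were highest in catagen (1266 and 779 TPM), but miR-144 in anagen (114 TPM). The listed starts of the 3 fibroblast and smooth muscle miRNAs summed to 12869, 22848 and 18134 TPM, nearly all of it miR-199a. The paper counts miR-143 among its most read miRNAs at every stage, so its listed starts hold only a small part of its reads. Among these starts, those of miR-145 were highest in catagen like the sum, but those of miR-143 in anagen (308, 83.3 and 87.9 TPM). For epithelium, 3 of 4 markers had a listed start and summed to 1038, 1835 and 1917 TPM, nearly all of it miR-205. For immune cells, 3 of 4 had one and summed to 131, 183 and 223 TPM. Of them, miR-223 and miR-142 were highest in telogen like the sum, but miR-155 in catagen (43.8, 77.7 and 55.3 TPM). The liver miRNA miR-122, and miR-203 and miR-150 of the epithelial and immune lists, had no start in the list used. That list is shortened and can lack the main start of a miRNA, so the sums are not the full levels of these markers. The part of these cells in the results below was not tested.

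The 3p start of miR-103 and miR-107 was among the most read of the 865 starts of listed miRNA tags. It ranked 6 in anagen with 75570 reads, 7 in catagen with 110564 and 9 in telogen with 102701. The list used is shortened and can lack highly read starts, so these ranks hold among its starts only. Its level was 6104 TPM in catagen (exact 95% interval 6069 to 6141), followed by anagen with 4724 (4690 to 4758) and telogen with 3801 (3778 to 3825). Thus catagen was highest and telogen lowest on this scale, and the intervals, which cover counting error only, did not overlap. Anagen and telogen were nearly equal when reads were scaled to those of miRNA starts (log2 ratio -0.0017 against 0.31). Their order turned on the most read tag alone (-0.13).

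miR-103, counted on its own tags, stood at 3064 TPM in catagen (55494 reads), while anagen had 2192 (35073 reads) and telogen 2334 (63054 reads). Catagen was the highest, while anagen and telogen lay close together on this scale. Scaled to the reads of miRNA starts, telogen lay near catagen instead, with a log2 ratio of catagen over telogen of 0.08. That of anagen over telogen was then -0.41. For miR-107, anagen had 563 TPM (8999 reads), catagen 635 (11503 reads) and telogen 349 (9425 reads). Here anagen lay near catagen, and telogen was lowest. The tags that fit both were at 1556 TPM in the anagen library (24891 reads), 1820 in the catagen library (32968 reads) and 829 in the telogen library (22403 reads). This shared pool exceeded the own reads of miR-107 in every library and never reached those of miR-103. Of the 3p reads it made up 32.9% in anagen (exact 95% interval 32.6 to 33.3), against 29.8% in catagen (29.5 to 30.1) and 21.8% in telogen (21.6 to 22.1). Tags that fit neither were at 413, 585 and 289 TPM in anagen, catagen and telogen.

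**Figure D1:**
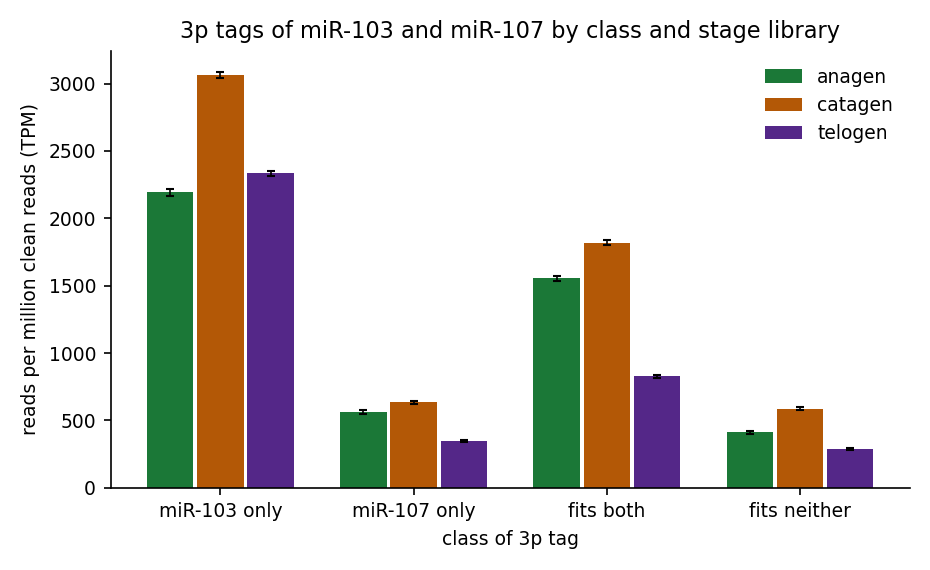
Bars give the level of each class of 3p tag (x axis) in TPM (y axis, from 0) in the 3 stage libraries, with exact 95% counting intervals and 1 library per stage. On this scale the miR-103 bars of anagen (2192) and telogen (2334) are close, whereas for miR-107 and for tags that fit both telogen is the lowest (349 and 829).

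Each pair of libraries was compared with the exact two-sided Audic-Claverie test on the reads, which compares libraries and not stages. A call required a log2 ratio beyond 1 in either direction together with p under 0.01. Over the starts of listed miRNA tags at 1 TPM or more in either library, the same rule called 25.6% (111 of 433) for anagen over catagen, 26.9% (113 of 420) for anagen over telogen and 18.2% (77 of 423) for catagen over telogen. The median log2 ratio of the starts with at least 100 reads in both libraries was -0.28 (190 starts), -0.14 (195) and 0.11 (216), respectively.

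Neither miRNA was called in any pair on its own tags. For miR-103 the log2 ratio of anagen over catagen was -0.48 (exact 95% interval -0.50 to -0.46), with -0.09 for anagen over telogen (-0.11 to -0.07) and 0.39 for catagen over telogen (0.38 to 0.41). For miR-107 it was -0.18 for anagen over catagen (-0.22 to -0.14), 0.69 for anagen over telogen (0.65 to 0.73) and 0.86 for catagen over telogen (0.82 to 0.90). The catagen level of miR-107 was thus 1.82 times that of telogen, against 1.31 times for miR-103. The ratio of miR-107 for catagen over telogen lay above that of 89.4% of the 216 well-read starts. For anagen over telogen it lay above that of 90.8% of the 195. These starts are whole, whereas each class of tags is only a part of the 3p start. Taken whole, the 3p start had 0.68 with catagen over telogen, above 84.7% of the 216. With anagen over telogen it had 0.31, above 75.4% of the 195. No pair of libraries gave the whole 3p start a call (-0.37 in anagen against catagen). The tags that fit both were called for catagen over telogen, at 1.13 (1.11 to 1.16), a 2.20-fold difference. This call was lost when scaled to the reads of miRNA starts (0.82) and with an assumed coefficient of variation of 0.4 in edgeR's exact test (unadjusted p = 0.178). For anagen over telogen they had 0.91 (0.88 to 0.93), which passed the limit with size factors (1.02), and for anagen over catagen -0.23 (-0.25 to -0.20), without a call. The tags that fit neither were called for catagen over telogen at 1.02 (0.97 to 1.06), a call lost with size factors (0.89) and when scaled to the reads of miRNA starts (0.70). With size factors from the median of ratios in place of clean reads, which moves every ratio of anagen over catagen by 0.23 and of anagen over telogen by 0.11, the former turned to 0.06 for miR-107 and the latter to 0.02 for miR-103.

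Whether miR-107 passes the limit rested on the counting of the shared tags and on the scaling. When they were added in full to each miRNA, as happens if a read counts for every precursor it matches, miR-107 had 44471 reads in catagen and 31828 in telogen, or 2455 and 1178 TPM. Its log2 ratio of catagen over telogen then became 1.06 (1.04 to 1.08), past the limit. When they were divided by the own reads of the miRNAs in the same library, it was 1.05. Both calls were lost with size factors (0.94 in full and 0.93 divided) and when scaled to the reads of miRNA starts in the list used (0.743 and 0.736). For anagen over telogen the ratio of miR-107 was 0.85 with the shared tags in full and 0.95 with the shared tags divided, within the limit. For miR-103 the shared tags turned the sign of anagen over telogen, from -0.09 to 0.24 in full (0.23 to 0.26) and 0.17 divided. The other ratios kept their sign and their side of the limit under these countings.

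**Figure D2:**
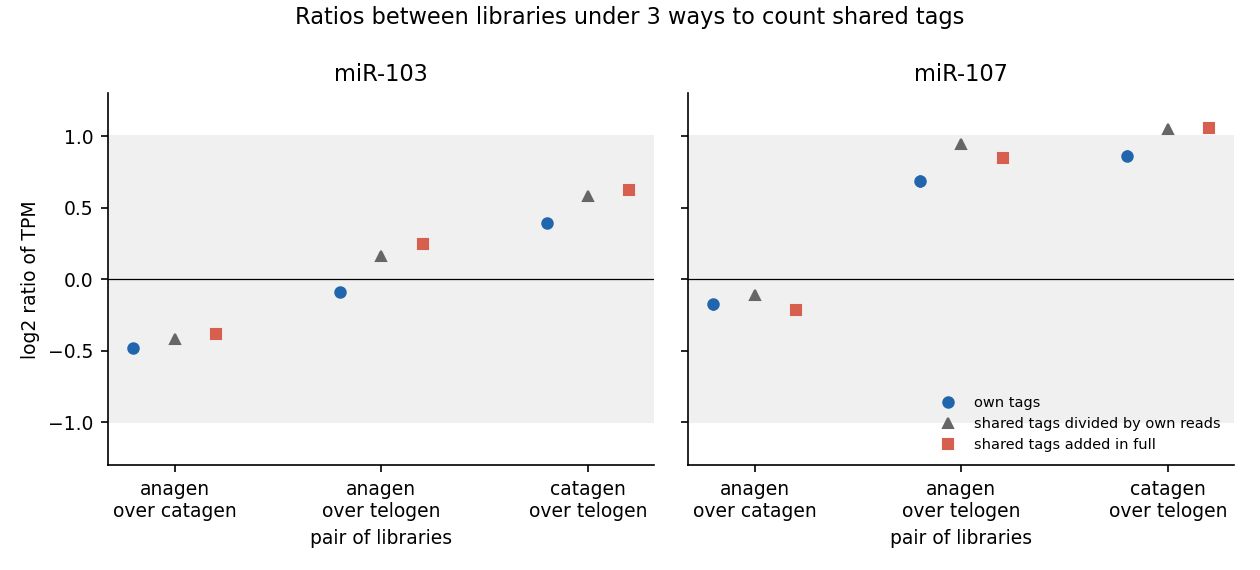
Points give the log2 ratio of TPM (y axis) of miR-103 (left) and miR-107 (right) for the 3 pairs of libraries (x axis), on own tags, with shared tags divided by own reads and with shared tags added in full. Vertical lines, mostly hidden by the points, are exact 95% counting intervals, and the grey band marks ratios within the limit of 1. With levels over clean reads, miR-107 leaves the band for catagen over telogen (0.86, 1.05 and 1.06), and miR-103 changes sign for anagen over telogen.

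Both miRNAs come from the same library, so their own reads can be set against each other without scaling. Of the own reads of the pair, miR-107 made up 20.4% in anagen (exact 95% interval 20.04 to 20.80), against 17.2% in catagen (16.9 to 17.5) and 13.0% in telogen (12.8 to 13.3). For each read of miR-107 there were 3.90 reads of miR-103 in anagen, against 4.82 in catagen and 6.69 in telogen. The odds of miR-107 against miR-103 were 1.24 times as high in anagen as in catagen (1.200 to 1.276, Fisher's exact test, two-sided, p = 4.29e-42). They were 1.72 times as high in anagen as in telogen (1.66 to 1.77, exact test, p = 1.36e-242) and 1.39 times as high in catagen as in telogen (1.35 to 1.43, exact test, p = 5.53e-105). These tests too compare libraries.

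The lower share of miR-107 in telogen was seen with each of 3 kinds of 3′ end, but the difference of anagen and catagen was not. Among tags that end at base 22, miR-107 held 22.1% in anagen and 23.9% in catagen, but 15.8% in telogen. The odds ratio of anagen over catagen was then 0.90 (0.85 to 0.96, exact test, p = 0.000566), the opposite direction. Among tags with A at base 23, the base of both listed sequences, the shares were 19.6%, 14.6% and 11.9%, and that odds ratio was 1.43 (1.37 to 1.48). Among tags with T at base 23, a base of neither listed sequence, the shares were 20.2%, 19.9% and 13.8%. Anagen and catagen were not distinguishable there (1.02, 0.93 to 1.13, exact test, p = 0.659). Over these 3 kinds of end, the odds ratio of anagen over telogen was 1.504 to 1.81 and that of catagen over telogen 1.27 to 1.67. The selections by base 23 were chosen after the data were seen. In tags of 24 nt or longer, few of which are miR-107, its share was 3.63% (2.92 to 4.46), 3.25% (2.74 to 3.82) and 3.10% (2.64 to 3.62), and these intervals overlapped.

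**Figure D3:**
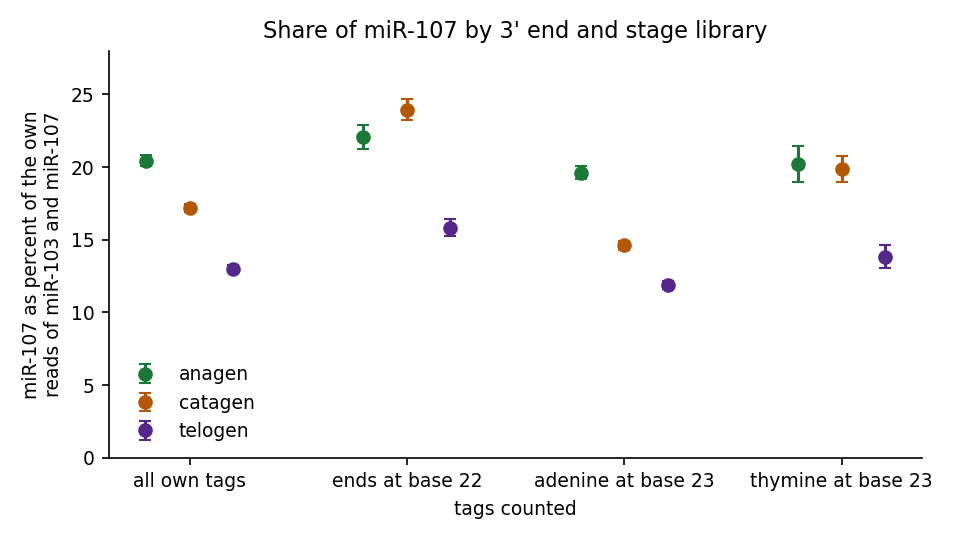
Points give miR-107 as a percent of the own reads of miR-103 and miR-107 (y axis, from 0) for all own tags and for 3 kinds of 3′ end (x axis) in the 3 stage libraries, with exact 95% intervals. Telogen is lowest throughout (11.9% to 15.8%), whereas anagen lies above catagen with adenine at base 23 (19.6% and 14.6%) and below it in tags that end at base 22 (22.1% and 23.9%).

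Only reads of 21 nt and less can fit both miRNAs. Reads of 23 nt were the most frequent 3p length, with 43.4% for anagen, 46.8% for catagen and 53.1% for telogen. Reads of 22 nt held 19.6%, 18.3% and 19.5%, and reads of 24 nt or longer 3.31%, 4.11% and 5.01%. Reads of 21 nt were most frequent in catagen with 28.4%, against 24.4% in anagen and 19.4% in telogen. Reads of 18 to 20 nt held 9.38% in anagen (exact 95% interval 9.17 to 9.59), against 2.34% in catagen (2.25 to 2.43) and 2.99% in telogen (2.88 to 3.09). Reads of 21 nt and less together were 33.8%, 30.7% and 22.4% of the 3p reads. Of the 18-nt tag alone, there were 1471 reads in anagen but 88 in catagen and 260 in telogen.

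**Figure D4:**
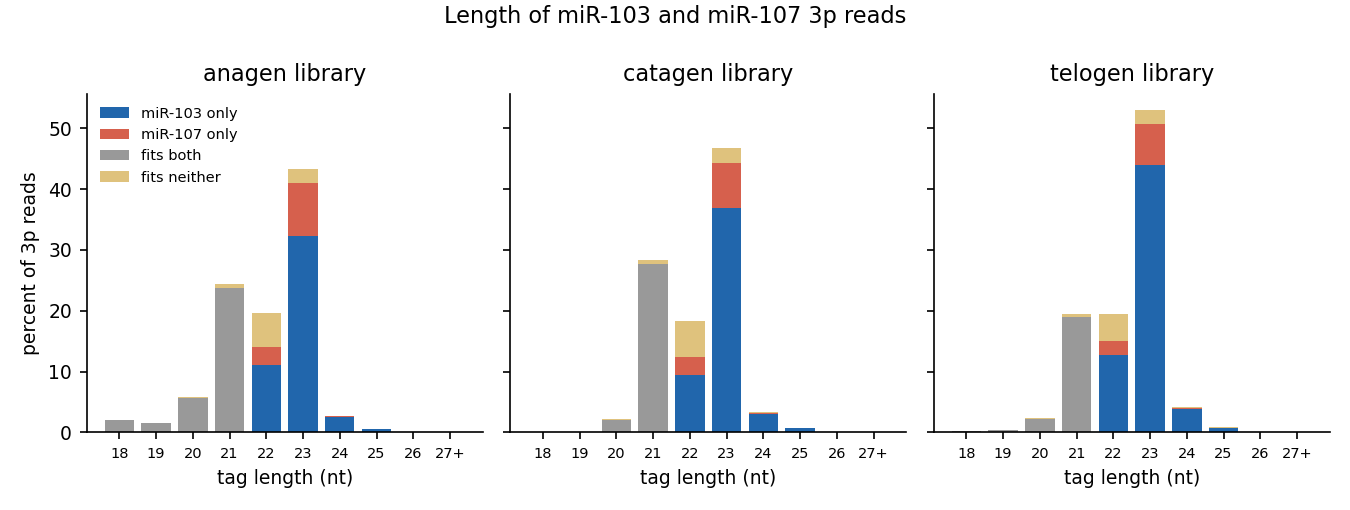
Stacked bars give the percent of 3p reads (y axis) at each tag length in nt (x axis, with 27 nt and longer in a single bar) in the 3 stage libraries, coloured by class. The 23-nt bar is tallest in each library (43.4%, 46.8% and 53.1%), and the bars of 18 to 20 nt, nearly all of whose reads fit both miRNAs, sum to 9.38% in anagen.

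The excess of short reads in anagen was common to other miRNAs. Of the 62 other listed starts with at least 1000 reads in each library, 59 had their highest share of 18 to 20 nt in anagen, and in 34 it was at least 3 times that in catagen. The median share of these starts was 5.25% in anagen, against 1.32% in catagen and 2.39% in telogen. The miR-103 and miR-107 start lay above 44 of them in anagen, 41 in catagen and 34 in telogen.

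**Figure D5:**
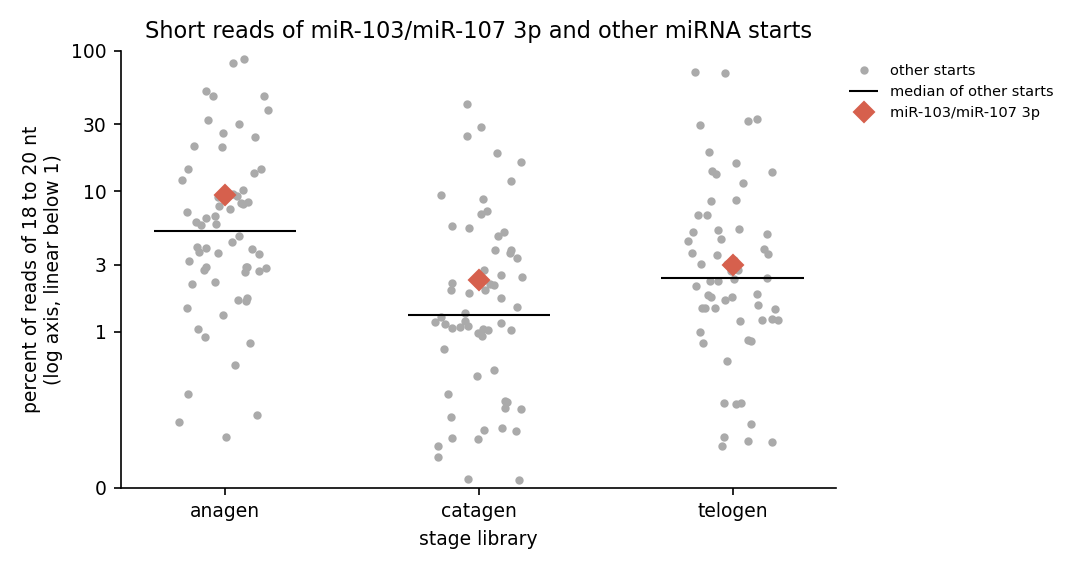
Points give the percent of reads of 18 to 20 nt (y axis, logarithmic and linear below 1) for the 62 other miRNA starts with at least 1000 reads in each library (grey), with their median (line) and the 3p start of miR-103 and miR-107 (diamond), in each stage library (x axis). The diamond lies above the median in each library (9.38% against 5.25% in anagen, 2.34% against 1.32% in catagen and 2.99% against 2.39% in telogen).

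The named variants are printed here because their last bases decide the class of a read. They are the 3 most read tags of each class and all others with at least 1% of the 3p reads in a library. Capitals mark the bases from 22 on.

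miR-103, 23 nt: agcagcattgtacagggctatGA

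miR-103, 22 nt: agcagcattgtacagggctatG

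miR-103, T at base 23: agcagcattgtacagggctatGT

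miR-103, 24 nt: agcagcattgtacagggctatGAT

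miR-107, 23 nt: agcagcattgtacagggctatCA

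miR-107, 22 nt: agcagcattgtacagggctatC

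miR-107, T at base 23: agcagcattgtacagggctatCT

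neither, T at base 22: agcagcattgtacagggctatT

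neither, T at bases 22 and 23: agcagcattgtacagggctatTT

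neither, A at base 22: agcagcattgtacagggctatA

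both, 21 nt: agcagcattgtacagggctat

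both, 20 nt: agcagcattgtacagggcta

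both, 19 nt: agcagcattgtacagggct

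both, 18 nt: agcagcattgtacagggc

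The 23-nt tag of miR-103 was the most read member of every stage, at 21481 reads for anagen, 35763 for catagen and 39611 for telogen (1343, 1975 and 1466 TPM). The shared 21-nt tag followed with 17930, 30601 and 19457 reads (1121, 1690 and 720 TPM). Next came the 22-nt tag of miR-103 with 8310, 10411 and 13012 reads. The 23-nt tag of miR-107 had 5625, 6607 and 5734 reads (352, 365 and 212 TPM), and its 22-nt tag 2352, 3277 and 2449. Of the reads that matched through base 21, 26.5%, 28.7% and 19.7% ended there, 51.7%, 52.0% and 63.8% went on with G, and 13.3%, 10.8% and 9.54% went on with C. Telogen thus had the smallest share of ends at base 21 and the largest share with G. The shared 21-nt tag alone was read at least 3 times as often as the main tag of miR-107.

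Many reads ended in T, which is U in the RNA, where the listed sequences have another base. Addition of such end bases to mature miRNAs is known as 3′ tailing and is done by terminal transferases. The tag with T at base 22 was read 3442 times in anagen, 5098 times in catagen and 3550 times in telogen, which is 19.2%, 16.7% and 18.2% of the reads of the shared 21-nt tag. The tag with A at base 22 had 546, 1195 and 815 reads, or 3.05%, 3.91% and 4.19% of it, and the tag with T at both bases 22 and 23 had 841, 1371 and 1111 reads. In the other 62 starts, T after the most read tag had a median of 8.77%, 8.96% and 10.1% of the reads of that tag, template bases included. The most read tag of the miR-103 and miR-107 start is the 23-nt tag of miR-103, after which T had 5.09%, 5.32% and 5.55%. The values for the shared 21-nt tag are thus not a like measure to that median. An added G or C on the 21-nt tag would read as miR-103 or miR-107, and cannot be told apart from the precursor base. Added G and C can be seen after the 22-nt tags, where the listed base is A. After that of miR-103, G had 7, 11 and 12 reads, against 2806, 5068 and 5598 for T, and after that of miR-107 49, 64 and 58, against 806, 1412 and 1025 for T. C had 160 reads in anagen, but 9 in catagen and 7 in telogen after the tag of miR-103, and 80, 1 and 5 after that of miR-107. In 29 of the 62 other starts, the C added to the most read tag was most frequent in anagen. Its median over the 62 was 0.194% in anagen, 0.0930% in catagen and 0.104% in telogen. On that measure C after the 23-nt tag of miR-103 was not highest in anagen, with 0.0372%, 0.0419% and 0.0379% (8, 15 and 15 reads). The C reads after the 22-nt tags are thus not a like measure to that median.

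The 3′ ends of the 2 miRNAs differed within each library. Tags of 24 nt or longer made up 6.58% of the own reads of miR-103 in anagen and 7.63% in both catagen and telogen. For miR-107 they made up 0.967%, 1.23% and 1.63%. The odds ratio of miR-103 over miR-107 was 7.22 in anagen (5.82 to 9.06, Fisher's exact test, p = 1.13e-133), 6.60 in catagen (5.58 to 7.87, exact test, p = 1.17e-193) and 4.98 in telogen (4.23 to 5.89, exact test, p = 3.96e-138). T after the 23-nt tag had 5.09%, 5.32% and 5.55% of the reads of that tag for miR-103, and 0.853%, 1.18% and 1.33% for miR-107. A after it, the base of both listed sequences, had 2.08%, 2.34% and 2.42% for miR-103 and 0.160%, 0.318% and 0.628% for miR-107. A at base 23 was also more frequent in miR-103 than in miR-107, with 66.5% against 63.2% in anagen, 70.7% against 58.4% in catagen and 68.9% against 62.2% in telogen. The reverse held for tags that end at base 22, which were 23.7% of miR-103 against 26.1% of miR-107 in anagen, 18.8% against 28.5% in catagen and 20.6% against 25.98% in telogen. For T at base 23 the miRNAs were not distinguishable in anagen, with 9.25% and 9.13% (odds ratio 1.01, 0.94 to 1.10, exact test, p = 0.744). These reads share a library, so the tests cover counting error only.

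Among the listed tags, those of the 5p arms separate the mir-103 precursors, whereas a 3p tag is listed for mir-103-1 only. Their most read tags are printed here, with capitals at the bases that differ from mir-103-2 (C16T in mir-107 and A1G in mir-103-1).

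mir-103-2: agcttctttacagtgctgccttgt

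mir-107: agcttctttacagtgTtgccttg

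mir-103-1: Ggcttctttacagtgctgccttgt

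The 5p start of mir-103-2 was read 18 times in anagen, 32 times in catagen and 52 times in telogen (1.13, 1.77 and 1.92 TPM). The start of mir-107 had 3, 4 and 10 reads, and that of mir-103-1 had 1, 2 and 13. mir-103-2 was the most read of them in every library. Its log2 ratio was -0.65 for anagen over catagen (-1.57 to 0.23, p = 0.159 by the exact test), -0.77 against telogen (-1.64 to 0.02, p = 0.0578) and -0.12 for catagen against telogen (-0.81 to 0.54, p = 0.793), so that no difference was detectable at this depth. Those of mir-107 and mir-103-1 lay under 1 TPM in each library and were not tested. For each 5p read of miR-103 there were 1846 own 3p reads in anagen (exact 95% interval 1182 to 3066), against 1632 in catagen (1168 to 2357) and 970.1 in telogen (761 to 1257). For miR-107 anagen had 2999.7 (1026 to 14548), catagen 2876 (1123 to 10556) and telogen 942.5 (512 to 1966). The intervals of the libraries overlapped for each miRNA, which is not a test of their difference. Over all 3p and all 5p reads, shared tags included, the ratio was 3435 in anagen, 2910 in catagen and 1369 in telogen. These rest on 22, 38 and 75 reads of the 5p arms, and their difference was not tested.

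miR-103 and miR-107 belong to a wider group with miR-15, miR-16, miR-195, miR-424, miR-497 and miR-503, which carry the same 6 bases AGCAGC near the 5′ end and are known as brakes of the cell cycle. Of the 9 miRNAs listed for this group, 4 had a listed start with these bases within the first 8. For miR-15b, miR-16a, miR-16b, miR-195 and miR-646 the shortened list held none, so they were not tested. The results below thus do not cover the whole group. For anagen over catagen 3 of the 4 were called lower and none higher (median log2 ratio -1.10), against 18.9% of all starts tested that were called lower in anagen. Among starts with at least 100 reads in both libraries, as these have, 15.3% were called in either direction. They were miR-15a (919 and 2448 reads, -1.23, -1.35 to -1.12), miR-424 (495 and 1231 reads, -1.14, -1.29 to -0.98) and miR-497 (840 and 1976 reads, -1.06, -1.17 to -0.94). With size factors only miR-15a kept its call (-1.003), while miR-424 had -0.90 and miR-497 -0.82. miR-503 had 3134 and 2677 reads and a log2 ratio of 0.41 (0.33 to 0.48). For anagen over telogen only miR-15a of the 4 was called, lower in anagen (919 and 3810 reads, -1.296, -1.40 to -1.19), against 16.4% of all starts called lower there. Scaled to the reads of miRNA starts, miR-424 was called too (-1.21). For catagen over telogen 0 of the 4 were called (median 0.34), against 18.2% of all starts in either direction. The ratios of miR-103 (-0.48) and miR-107 (-0.18) for anagen over catagen lay above those of miR-15a, miR-424 and miR-497 and below that of miR-503. So did the median of the starts with at least 100 reads in both libraries (-0.28).

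Among the 62 other starts with at least 1000 reads in each library, that of miR-365 was most like miR-103. Its level was 425 TPM in catagen, against 324 in anagen and 323 in telogen. The largest difference of its log2 levels from those of miR-103, each taken relative to the mean over the 3 libraries, was 0.06. A pair of starts listed under miR-2284x came next, at 0.09 and 0.10. For miR-107 the nearest were miR-296 at 0.21 (66.6, 90.7 and 52.8 TPM), a start listed under miR-2284x at 0.32 and miR-503 at 0.34. Over 3 libraries such likeness is only a description.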

How the data were processed

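Small RNA of 3 goat skin libraries (1 each of anagen, catagen and telogen, groups per the labels) was read on an Illumina/Solexa sequencer. The deposited values are counts, namely whole reads per distinct tag, without normalisation. Before deposit the authors discarded reads of low quality, adapter contaminants, reads lacking an insert, poly(A) reads and those under 18 nt, and collapsed identical reads. Program versions for this step are not given in the sources used here. No alignment enters these values, and the counts of each file sum to the clean reads in the filter record of the authors.

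Starts and precursor names came from the authors' list of tags annotated to miRNAs, of which the copy used is shortened (2697 tags). It names no 3p tag of mir-103-2, and no mature sequences were used. Levels are TPM over clean reads, as in the study, and values of 0 were set to 0.01 TPM for ratios. Intervals are exact 95% (Clopper-Pearson, or Poisson for levels). With 1 library per stage there are no residual degrees of freedom for a quasi-likelihood test, so the Audic-Claverie test of the study was used across all starts at 1 TPM or more, with Python 3.11.15, scipy 1.17.1 and edgeR 4.0.16 for an alternative. Scripts were tested on simulated data. Tags were named by reads (3 most read per class, or at least 1% of 3p reads). The members, lists and rules were chosen with earlier results of these data known. Alternatives were other scalings, countings of shared tags, tag selections, minimum levels, Fisher's exact test and edgeR's exact test with an assumed coefficient of variation of 0.1 or 0.4.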

Additional observations from a re-analysis of the deposited data

Results flagged for a closer look

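Reads outside the members were noticed where the sequence of bases 6 to 18 of the 3p start lay at another distance from the 5′ end, which moves the seed. Anagen had 371 such reads, catagen 412 and telogen 323, above the limit of 3 reads that a count of 0 allows. They were 0.489%, 0.371% and 0.314% of the shifted and member 3p reads together. Of them, 200, 251 and 215 started 2 bases later, and 100, 53 and 17 started 1 base later. The most read shifted tag in each library (125, 194 and 152 reads) carries G at the base that separates the miRNAs, as in miR-103:

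shifted by 2 bases: cagcattgtacagggctatga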

How the results depend on the processing

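Of 75 log2 ratios recomputed, 64 kept their direction and side of the limit. In 36 further results only the test changed and not the ratio, and 35 kept their call. Most could not do otherwise, since a ratio within the limit stays uncalled under any test. Only the tags that fit both, for catagen over telogen (1.13), had a call to lose. With size factors, the ratio of anagen over catagen turned to 0.057 for miR-107. For the tags that fit both it was 0.0054, so that the levels were nearly equal. That of anagen over telogen turned to 0.021 for miR-103, while the shared tags passed the limit there (1.02). The ratio of miR-103 for anagen over telogen turned to 0.24 with shared tags in full and 0.17 divided. That of all 3p tags turned to -0.13 on the most read tag. Scaled to reads of miRNA starts it was -0.0017, with nearly equal levels. miR-107 passed the limit for catagen over telogen at 1.06 and 1.05 with shared tags in full or divided, and, in alternatives chosen after the data were seen, lost those calls with size factors (0.94 and 0.93) and scaled to reads of miRNA starts (0.743 and 0.736). So did the tags that fit neither (0.89 and 0.70), and the latter turned miR-424 to -0.078. The shared tags lost that call when scaled to reads of miRNA starts (0.82) and with an assumed coefficient of variation of 0.4 in edgeR's exact test (1.13, unadjusted p = 0.178). Of 24 odds ratios, 22 kept direction and side; anagen over catagen became 0.90 on 22-nt tags and 1.02 on tags with T at base 23. The share of shared tags was 39.4%, 36.7% and 26.6% over tags that match to their last base, and 1.87%, 1.69% and 1.72% of distinct tags, in anagen, catagen and telogen. The numbers of starts called, for anagen against catagen, anagen against telogen and catagen against telogen, were 6772 of 19011 (35.6%), 6793 of 19643 (34.6%) and 5046 of 18462 (27.3%) over all 18-nt starts at 1 TPM or more, 29 of 190 (15.3%), 24 of 195 (12.3%) and 25 of 216 (11.6%) with at least 100 reads in both, and 20 of 433, 29 of 420 and 12 of 423 with a coefficient of 0.4. No paired analysis was possible because each stage has 1 library, and no replicate could be left out. Intervals cover counting error only.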
